A study of Homo sapiens with 30 samples.

Results

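The genes of the proteasome were followed through activation of Jurkat E6-1 cells, an established human T cell leukaemia line. The members are the symbols made of PSM, a letter from A to G and digits with nothing after them, which gave 48 of the 54300 symbols in the files. Of the 33 other symbols that begin with PSM, 29 are named as pseudogenes and none was taken. The KO cells lack isoform 1 of SLAMF6, a SLAM family receptor on lymphocytes, and are called SLAMF6∆17-65 in the treatment protocol. The WT cells are the unedited line. Both were sampled at time points 0, 6, 12, 24 and 36, read here as hours (the labels give no unit), in 3 libraries for each of the 10 groups. The 0 h cells were unstimulated, and at every later time both genotypes had received PMA, a phorbol ester, and ionomycin, a calcium ionophore. Overexpression of isoform 3 is what the series title names, whereas the design text and sample names give the isoform 1 knockout, which was followed here. The labels do not say how many edited clones were used or whether the libraries of a group came from separate cultures, so p-values measure the spread between these libraries only. A bulk library cannot tell apart more cells expressing a gene and more RNA per cell.

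The proteasome degrades proteins tagged with ubiquitin. Its barrel-shaped core is built of alpha rings (PSMA genes) around beta rings (PSMB genes). A regulatory particle of ATPases (PSMC) and lid and base subunits (most PSMD genes) unfolds substrates and feeds them in. PSMB5, PSMB6 and PSMB7 carry the constitutive active sites. In lymphoid cells and in cells exposed to interferon gamma, PSMB8, PSMB9 and PSMB10 take their places in newly assembled cores, in that order, and PSME1 and PSME2 form the PA28 cap. The resulting immunoproteasome is known for producing peptides that MHC class I molecules present to T cells. PSMG1 to PSMG4 are chaperones that help to assemble the alpha ring.

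The libraries held 5.64 to 28.2 M counts each, and proteasome genes took between 1.19% and 1.85% of them. The WT libraries of 12 h stood apart: they listed 33272, 39654 and 35006 symbols at 13.8, 19.5 and 15.7 M counts, whereas the KO libraries of 12 h listed 30511, 30185 and 29674 at 20.8, 21.1 and 19.3 M. Among the results over several times, those averaged or tested jointly are therefore also given without 12 h. At 36 h the WT libraries are numbered 1 to 3 and the KO libraries 4 to 6 in the titles, whereas at the other times both genotypes carry the same numbers. The titles also carry a letter, which is A for WT and B for KO from 0 to 24 h and C for both genotypes at 36 h. The labels do not say what the letter marks. If it marks a batch, batch and group cannot be told apart in the comparisons of KO with WT from 0 to 24 h or of 36 h with 0 h, whereas KO and WT share the letter at 36 h. Results averaged or tested jointly over times mix these letters. SLAMF6 averaged 19.3 ± 1.47 CPM in KO and 21.2 ± 3.4 CPM in WT at 0 h (counts scaled by TMM to a common library size, SD, n = 3 each). Its KO libraries lay above the WT libraries at 24 h, at 109.7 to 147 CPM in KO and 65.2 to 97.4 CPM in WT, and at 36 h, at 125 to 149 CPM in KO and 101 to 112 CPM in WT. Counts per gene sum over isoforms and therefore do not check the knockout. All 10 markers of T cells and of this line were detected, at a summed 2924 to 4274 CPM in KO libraries and 3685 to 4921 CPM in WT libraries. Summed monocyte markers stayed at or under 2.65 CPM in KO and 4.14 CPM in WT, markers of adherent lines at or under 6.17 and 4.52 CPM, and erythroid markers at or under 0.292 and 1.06 CPM. B cell markers summed to between 10.3 and 31.6 CPM in KO and between 17.1 and 33.5 CPM in WT, through CD79A alone of the 5.

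PSMB8 and PSMB9 lie next to each other in the MHC region of chromosome 6, with the peptide transporter gene TAP1 between them, and PSMB9 and TAP1 are known to share a promoter region from which they are read in opposite directions. PSME1 and PSME2 lie close together on chromosome 14, and PSMB10 lies on chromosome 16. The 60 bases before the transcription start that RefSeq lists first (GRCh38.p14, in the direction of the gene) are given for these 5 inducible genes, because the results turn on them. Capitals mark a match to GAAANNGAAA, the core of the interferon-stimulated response element (ISRE), which IRF proteins bind. The windows are chr6:32844680-32844739 on the minus strand for PSMB8 and chr6:32854132-32854191 on the plus strand for PSMB9. That of PSMB10 is chr16:67936851-67936910 on the minus strand. Those of the PA28 genes are chr14:24136134-24136193 on the plus strand for PSME1 and chr14:24146611-24146670 on the minus strand for PSME2. GENCODE 29 gene bounds on the same assembly reach into all 5 windows, so each lies partly or wholly within a longer annotated form of the gene.
PSMB8: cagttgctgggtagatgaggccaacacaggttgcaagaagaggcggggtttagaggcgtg
PSMB9: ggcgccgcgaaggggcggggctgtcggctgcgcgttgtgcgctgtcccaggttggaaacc
PSMB10: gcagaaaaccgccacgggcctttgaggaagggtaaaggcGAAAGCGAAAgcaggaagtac
PSME1: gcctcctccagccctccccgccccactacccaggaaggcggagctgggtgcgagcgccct
PSME2: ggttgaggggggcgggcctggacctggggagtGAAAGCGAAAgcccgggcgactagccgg

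The same letters, GAAAGCGAAA, stand 21 to 12 bases before the start of PSMB10 and 28 to 19 bases before that of PSME2, and they recur 33 to 24 bases before that of the chaperone gene PSMG4. In the full 250 bases before the start, searched on both strands, ISRE letters were found for 5 of the 42 members in the RefSeq table, namely PSMB10, PSME2, PSMB4, PSMA4 and PSMG4, against 3.07% of the 27305 promoters in that table. The gamma-activated site TTCNNNGAA was found for PSMA2, PSMD3, PSME3, PSMA8 and PSMC4 and for none of the 5 inducible genes, against 6.78% of promoters. The letters GGGNNTTNCC, bound by NF-kB, were found for PSMD6 only, against 5.08%. The antioxidant response element TGACNNNGC was found for 11 of the 42 members, 3 of them inducible (PSMB9, PSME1 and PSME2), against 11.03%. A match describes letters in this window and is neither a site nor a cause, and its absence says nothing of the factor.

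In GENCODE 29, 134 of the 1549 exon bases of PSMB8 and 139 of the 921 of PSMB9 are shared with PSMB8-AS1, which is read opposite to PSMB8 and in the direction of PSMB9, and 374 of the 1218 of PSMB10 with a transcript without a gene symbol on its own strand. For PSME1 and PSME2 no other gene shares more than 21 exon bases. Whether counting used strand is not given in the sources used here, so reads of overlapping genes cannot be told apart.

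Before activation the core genes were the more abundant ones per length. Exon length was taken as the union of exons over protein-coding transcripts, so levels per kb also depend on the annotation. Divided by it, levels at 0 h in KO ran from 4.70 CPM per kb for PSME4, the nuclear activator PA200, to 621 for PSMB1. In WT they ran from 4.05 for PSME4 to 624 for PSMB1. The median over the 14 constitutive core genes (PSMA8 left out) was 370 CPM per kb in KO and 407 in WT, and that over the 20 genes of the regulatory particle was 114 in KO and 116 in WT. PSMB8 stood at 200.04 ± 5.05 CPM per kb in KO and 152 ± 5.66 in WT (SD, n = 3 each), while its counterpart PSMB5 stood at 135 ± 9.37 in KO and 163 ± 16.03 in WT. PSMB8 libraries thus lay above those of PSMB5 in KO and among them in WT. PSMB9 stood at 113 ± 4.72 in KO and 84.5 ± 5.49 in WT, below PSMB6 at 234 ± 32.6 in KO and 351 ± 40.0 in WT. PSMB11, the thymus-specific catalytic subunit, held 0.435 CPM at most in a group mean and was the only member removed by the filter on low counts, so 47 members were tested.

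Activation raised the immunoproteasome genes, except PSME1 in WT, while other proteasome genes moved in both directions. At 6 h, 9 of 47 members rose and 3 fell in KO, where 14.0% and 13.2% of the 21554 tested symbols did so. In WT at 6 h, 4 members rose and 9 fell, against 11.8% and 10.5% of tested symbols. At 12 h, 21 members rose and 2 fell in KO, against 14.1% and 13.7% of tested symbols. The share of rising members was thus over the background in KO at 6 and 12 h, and the falls at 12 h were under it. Of the 42 tested members outside the inducible genes, 5 rose and 3 fell in KO at 6 h, both under the background. At 12 h, 16 of the 42 rose and 2 fell in KO, so their rises were over it. In WT at 12 h, 15 members rose and 8 fell, against 14.8% and 15.6%. At 24 h, 16 rose and 7 fell in KO, against 16.1% and 16.7%. In WT at 24 h, 10 rose and 13 fell, against 17.3% and 17.0%. At 36 h the genotypes stood on opposite sides. In KO, 17 rose and 6 fell, against 18.6% and 18.0% of tested symbols. In WT, 6 rose and 22 fell, against 20.2% and 19.0%. Called means an adjusted p under 0.05 in edgeR's quasi-likelihood test with Benjamini-Hochberg adjustment, and rose or fell is written only of such calls. Counting rises and falls together, 23 members were called in WT at 12 h and 23 in KO at 36 h. This WT count was 15 without WT 0 h replicate 3 or WT 12 h replicate 9 and 15 with no filter on low counts. It was 35 in a fit of the 6 libraries compared, and the KO count at 36 h was 15 without KO 0 h replicate 2.

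The largest rises at 12 h were those of inducible genes. All 5 inducible genes rose in KO at 12, 24 and 36 h and 4 at 6 h. In WT, 2 rose at 6 h and 4 at each later time, while PSME1 fell at 36 h. Their median log2 fold changes at 6, 12, 24 and 36 h were 0.71, 1.63, 1.18 and 0.68 in KO and 0.27, 1.11, 0.89 and 0.42 in WT. The medians of the other 42 tested members were 0.07, 0.27, 0.05 and 0.09 in KO and -0.05, 0.16, -0.09 and -0.27 in WT. The medians over all tested symbols were 0.03, 0.05, 0.05 and 0.04 in KO and 0.03, 0.12, 0.03 and 0.01 in WT. As a share of all proteasome CPM, the 5 genes made up 9.21%, 11.6%, 17.6%, 16.5% and 15.4% at 0, 6, 12, 24 and 36 h in KO and 8.07%, 9.58%, 12.7%, 12.5% and 11.8% in WT (means, n = 3 each).

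PSMB9, the inducible subunit that replaces PSMB6, had the highest log2 fold change of the tested members at 12, 24 and 36 h in both genotypes, and PSMB10 had it at 6 h. In KO libraries it held 104, 99.5 and 108 CPM at 0 h, 177, 236 and 167 at 6 h, 438, 479 and 593 at 12 h, 365, 415 and 439 at 24 h and 410.1, 395 and 445 at 36 h. In WT libraries it held 81.2, 72.0 and 80.3 CPM at 0 h, 124, 116 and 97.6 at 6 h, 245, 245 and 286 at 12 h, 183, 186 and 252 at 24 h and 189, 172 and 191 at 36 h. Every activated library lay above every 0 h library of its genotype, and from 0 h on every KO library lay above every WT library of the same time. The log2 fold change at 12 h was 2.27 (SE 0.13, adjusted p = 1.85e-15) in KO and 1.73 (SE 0.13, adjusted p = 2.12e-12) in WT. At 36 h it was 2.00 (SE 0.13, adjusted p = 2.21e-14) in KO and 1.24 (SE 0.13, adjusted p = 1.58e-09) in WT.

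PSMB10, which replaces PSMB7, peaked at 12 h and then came down. It held 96.9, 90.5 and 99.7 CPM at 0 h, 193, 214 and 181 at 6 h, 369.7, 415 and 445 at 12 h, 210.5, 223 and 218 at 24 h and 151, 158 and 149.8 at 36 h in KO. WT libraries held 91.8, 89.1 and 97.5 CPM at 0 h, 163, 154 and 131 at 6 h, 257, 239 and 288 at 12 h, 159, 177 and 179.7 at 24 h and 111, 97.8 and 127 at 36 h. The genotypes overlapped at 0 h and were apart at each activated time, with KO above. Its log2 fold change was 2.10 (SE 0.10, adjusted p = 2.59e-17) at 12 h in KO and 1.49 (SE 0.10, adjusted p = 1.76e-13) in WT. By 36 h it was 0.67 (SE 0.10, adjusted p = 1.86e-06) in KO and 0.27 (SE 0.10, adjusted p = 0.0329) in WT, and the WT call was lost without WT 0 h replicate 1 or 2, WT 36 h replicate 1 or 3 (adjusted p from 0.0617 to 0.267) and without the filter on low counts (adjusted p = 0.1055).

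PSMB8, which replaces PSMB5, was the most abundant of the 3 before activation. It held 305, 306 and 319 CPM at 0 h, 366, 429 and 355 at 6 h, 669, 748 and 818 at 12 h, 541, 578 and 639.9 at 24 h and 504, 468 and 512 at 36 h in KO. In WT it held 231, 231 and 246 CPM at 0 h, 296, 292 and 233 at 6 h, 514, 464 and 554 at 12 h, 438, 488 and 504 at 24 h and 427, 377 and 421 at 36 h. All libraries of 12 h and later lay above those of 0 h in both genotypes. The log2 fold change at 12 h was 1.26 (SE 0.10, adjusted p = 5.65e-12) in KO and 1.11 (SE 0.10, adjusted p = 1.41e-10) in WT. At 6 h it was 0.31 (SE 0.10, adjusted p = 0.0199) in KO, a call lost without KO 0 h replicate 1 or 2, KO 6 h replicate 5 (adjusted p from 0.0575 to 0.165) and without the filter on low counts (adjusted p = 0.0593), and 0.21 (SE 0.10, adjusted p = 0.134) in WT.

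The PA28 genes split. PSME2, the beta subunit, held 226, 200.1 and 242 CPM at 0 h, 350.0, 394 and 346 at 6 h, 665, 619.6 and 779 at 12 h, 527, 588 and 664 at 24 h and 669, 593 and 661 at 36 h in KO. The WT libraries had 233, 211 and 219 CPM at 0 h, 292, 277 and 234 at 6 h, 421, 426 and 434 at 12 h, 306, 327 and 469 at 24 h and 335, 259 and 294 at 36 h. The genotypes overlapped at 0 h, and KO libraries lay above all WT libraries from 6 h on. The log2 fold change at 36 h was 1.52 (SE 0.13, adjusted p = 7.56e-12) in KO and 0.42 (SE 0.13, adjusted p = 0.00732) in WT, the WT call being lost without WT 36 h replicate 1 (adjusted p = 0.0686). PSME1, the alpha subunit, began higher and moved less. It held 523, 511 and 574 CPM at 0 h, 795, 785 and 888 at 12 h and 696, 610.3 and 679 at 36 h in KO. In WT it held 529.6, 533 and 512 CPM at 0 h, 602, 572 and 585 at 12 h and 442, 374 and 422 at 36 h. KO libraries of 36 h thus lay above their 0 h libraries and WT libraries of 36 h below theirs. Its log2 fold change at 36 h was 0.30 (SE 0.11, adjusted p = 0.0264) in KO, a call lost without KO 0 h replicate 1 or 2, KO 36 h replicate 4 or 6 (adjusted p from 0.0719 to 0.0979). In WT it was -0.35 (SE 0.11, adjusted p = 0.0106), a call lost without WT 0 h replicate 1, WT 36 h replicate 2 (adjusted p from 0.0543 to 0.119). In KO at 12 h it was 0.62 (SE 0.11, adjusted p = 3.35e-05), against 0.16 (SE 0.11, adjusted p = 0.284) in WT.

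**Figure D1:**
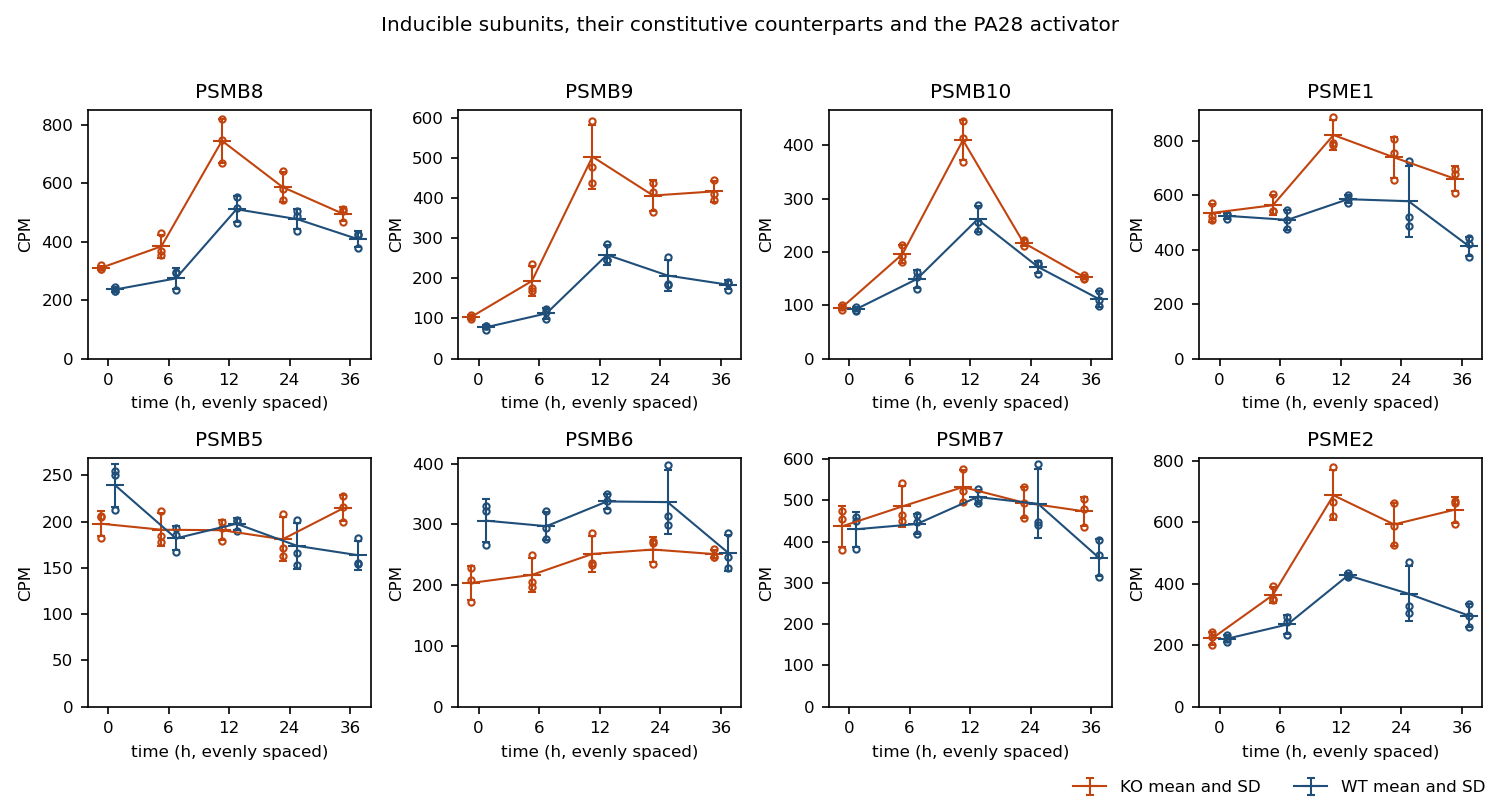
TMM-scaled CPM of PSMB8, PSMB9, PSMB10, PSME1, PSME2 and the constitutive subunits PSMB5, PSMB6 and PSMB7 by time of activation, with KO left of WT at each time. Open circles are libraries, and bars with lines are the mean and SD of 3 libraries. PSMB9 in KO stands at 438 to 593 CPM at 12 h, above the 245 to 286 CPM of WT, while PSMB6 in KO lies below WT from 0 to 24 h.

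Of the constitutive catalytic subunits, PSMB6 was called higher than at 0 h in KO at 24 and 36 h, and PSMB5 and PSMB7 were not called higher at any time in either genotype. PSMB5 held 198 ± 13.7, 191 ± 17.7, 191 ± 10.5, 181 ± 23.9 and 214 ± 13.9 CPM at 0, 6, 12, 24 and 36 h in KO (SD, n = 3 each), and it was not called at any time. In WT it held 239 ± 23.5, 182 ± 13.03, 198 ± 6.54, 174 ± 25.1 and 164 ± 15.7 CPM. In WT it fell at 24 h by 0.46 (SE 0.11, adjusted p = 0.000908) and at 36 h by 0.55 (SE 0.11, adjusted p = 0.000105) on the log2 scale. At 6 h the WT value was -0.40 (SE 0.11, adjusted p = 0.00638), a call lost without WT 6 h replicate 6 (adjusted p = 0.0571). PSMB6 in KO held 204 ± 28.4 CPM at 0 h, 259 ± 21.0 at 24 h and 251 ± 7.08 at 36 h. In WT it held 306 ± 34.9 CPM at 0 h, 337 ± 53.0 at 24 h and 253 ± 29.4 at 36 h and was not called at any time. In KO its log2 fold change at 24 h was 0.34 (SE 0.12, adjusted p = 0.0264), a call lost without KO 0 h replicate 2, KO 24 h replicate 11 or 12 (adjusted p from 0.0671 to 0.185). At 36 h it was 0.30 (SE 0.12, adjusted p = 0.0494), a call lost without KO 0 h replicate 1 or 2, KO 36 h replicate 4 or 5 or 6 (adjusted p from 0.0832 to 0.279). PSMB7 was not called in either genotype, with log2 fold changes between 0.11 (36 h) and 0.28 (12 h) in KO and between -0.25 (36 h) and 0.24 (12 h) in WT.

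Within each library, the count of each inducible subunit was divided by that of the subunit it replaces, a ratio that no scaling of libraries can move. The log2 ratio of PSMB9 to PSMB6 was -1.01, -0.80 and -1.08 at 0 h in KO libraries and -1.99, -1.88 and -2.04 in WT libraries. At 12 h it was 0.89, 1.04 and 1.06 in KO and -0.41, -0.47 and -0.29 in WT. At 36 h it was 0.66, 0.68 and 0.85 in KO and -0.59, -0.41 and -0.36 in WT. PSMB9 counts thus exceeded PSMB6 counts in all 3 KO libraries at 12, 24 and 36 h and in no WT library. PSMB8 to PSMB5 averaged 0.65 ± 0.09, 1.00 ± 0.02, 1.96 ± 0.15, 1.70 ± 0.07 and 1.21 ± 0.05 at 0, 6, 12, 24 and 36 h in KO. In WT it averaged -0.01 ± 0.13, 0.59 ± 0.10, 1.37 ± 0.14, 1.46 ± 0.13 and 1.32 ± 0.11. At 36 h the KO libraries, at 1.15, 1.23 and 1.25, overlapped the WT libraries, at 1.23, 1.29 and 1.44. PSMB10 to PSMB7 averaged -2.18 ± 0.10, -1.31 ± 0.04, -0.38 ± 0.12, -1.18 ± 0.09 and -1.63 ± 0.15 in KO and -2.21 ± 0.11, -1.57 ± 0.11, -0.96 ± 0.16, -1.50 ± 0.19 and -1.69 ± 0.17 in WT (SD, n = 3 each).

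All 3 ratios were higher in KO, averaged over the 5 times. The mean difference was 1.23 for PSMB9 to PSMB6 (exact two-sided permutation within times, p = 6.25e-07, the smallest it can give, adjusted over the 3 ratios 1.88e-06). It was 0.36 for PSMB8 to PSMB5 (exact p = 6.25e-05, adjusted 9.38e-05) and 0.25 for PSMB10 to PSMB7 (exact p = 0.000394, adjusted 0.000394). Without 12 h the differences were 1.20, 0.30 and 0.17 (adjusted exact p = 3.75e-05, 0.00184 and 0.00769). These averages do not describe every time. At 36 h, the only time at which both genotypes carry the same title letter, PSMB8 to PSMB5 averaged 1.21 in KO and 1.32 in WT. PSMB10 to PSMB7 averaged -1.63 in KO and -1.69 in WT at 36 h, and its libraries overlapped at 0 and 36 h. Only for PSMB9 to PSMB6 did the KO libraries lie above the WT libraries at every time. Both genes of the PSMB9 to PSMB6 ratio differed, with log2 differences of KO over WT, averaged over the 5 times, of 0.86 for PSMB9 and -0.37 for PSMB6. Activation raised all 3 ratios at all 4 later times, by between 0.48 (PSMB8 to PSMB5, 6 h) and 1.77 (PSMB9 to PSMB6, 12 h) on average over both genotypes. Each of these 12 tests gave an exact permutation p of 0.005, the smallest it can give, and 0.005 after adjustment.

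**Figure D2:**
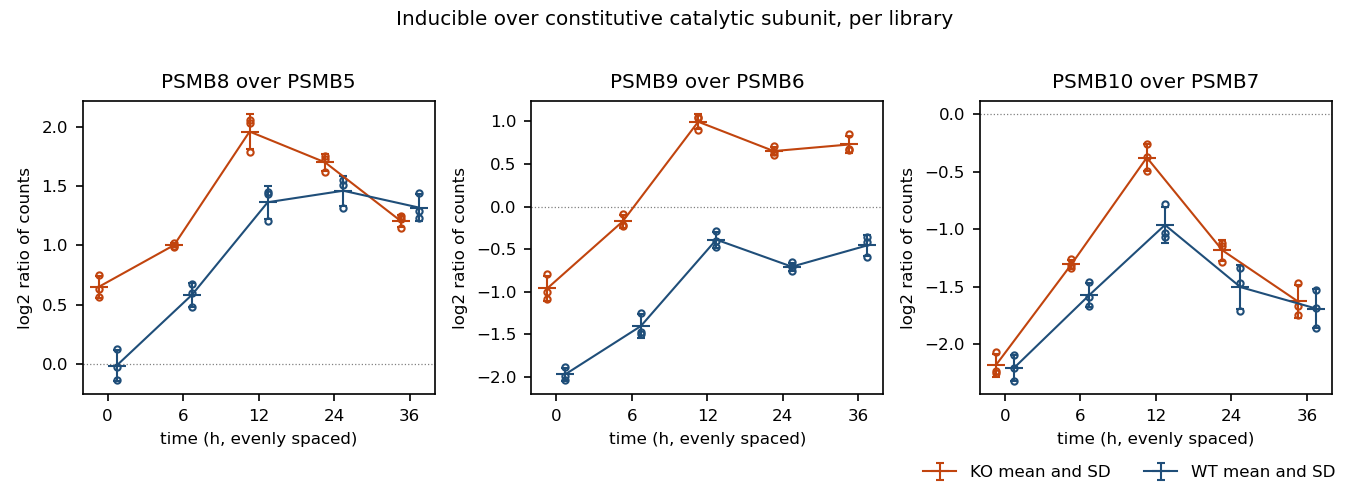
Log2 ratio of counts of the inducible over the constitutive catalytic subunit by time of activation, with KO left of WT. Circles are libraries, and bars with lines are the mean and SD of 3 libraries. The KO libraries of PSMB9 over PSMB6 lie above the WT libraries at every time. Those of PSMB8 over PSMB5 overlap the WT libraries at 36 h, and those of PSMB10 over PSMB7 overlap them at 0 and 36 h.

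The assembly chaperones of the alpha ring fell. In WT, PSMG1, PSMG3 and PSMG4 fell at all 4 times and PSMG2 at 6, 24 and 36 h. In KO, PSMG3 fell at all 4 times, PSMG1 at 6, 12 and 24 h, PSMG2 at 24 and 36 h and PSMG4 at 24 h. The PSMG4 call in KO at 24 h was lost without KO 0 h replicate 1 or 2 or 3, KO 24 h replicate 10 or 11 (adjusted p from 0.0562 to 0.131), with DESeq2's size factors (adjusted p = 0.051) and without the filter on low counts (adjusted p = 0.262). In WT at 6 h the PSMG2 call was lost without WT 0 h replicate 2, WT 6 h replicate 4 or 5 or 6 (adjusted p from 0.0957 to 0.167) and the PSMG4 call without WT 0 h replicate 2 or 3, WT 6 h replicate 4 or 6 (adjusted p from 0.0651 to 0.171), and both were lost without the filter (adjusted p = 0.201 and 0.1465). PSMG3 held 122, 149.7 and 122 CPM at 0 h, 84.0, 83.5 and 91.8 at 12 h, 65.9, 74.0 and 81.2 at 24 h and 109.5, 107 and 105 at 36 h in KO. Its WT libraries held 156, 191 and 155 CPM at 0 h, 73.3, 69.6 and 67.2 at 12 h, 62.6, 71.4 and 71.7 at 24 h and 73.5, 65.2 and 62.1 at 36 h. WT libraries stayed low from 12 h on, while KO libraries of 36 h stood above their own 24 h libraries. The log2 fold change at 36 h was -1.32 (SE 0.11, adjusted p = 1.11e-11) in WT. In KO it was -0.29 (SE 0.11, adjusted p = 0.0393), a call lost without KO 0 h replicate 2 or 3, KO 36 h replicate 4 or 5 or 6 (adjusted p from 0.0535 to 0.245) and with DESeq2's test or size factors (adjusted p = 0.056 and 0.0591) and without the filter on low counts (adjusted p = 0.278). PSMG1 at 12 h was at -0.94 in KO (adjusted p = 2.32e-06) and -1.05 in WT (adjusted p = 3.63e-07).

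**Figure D3:**
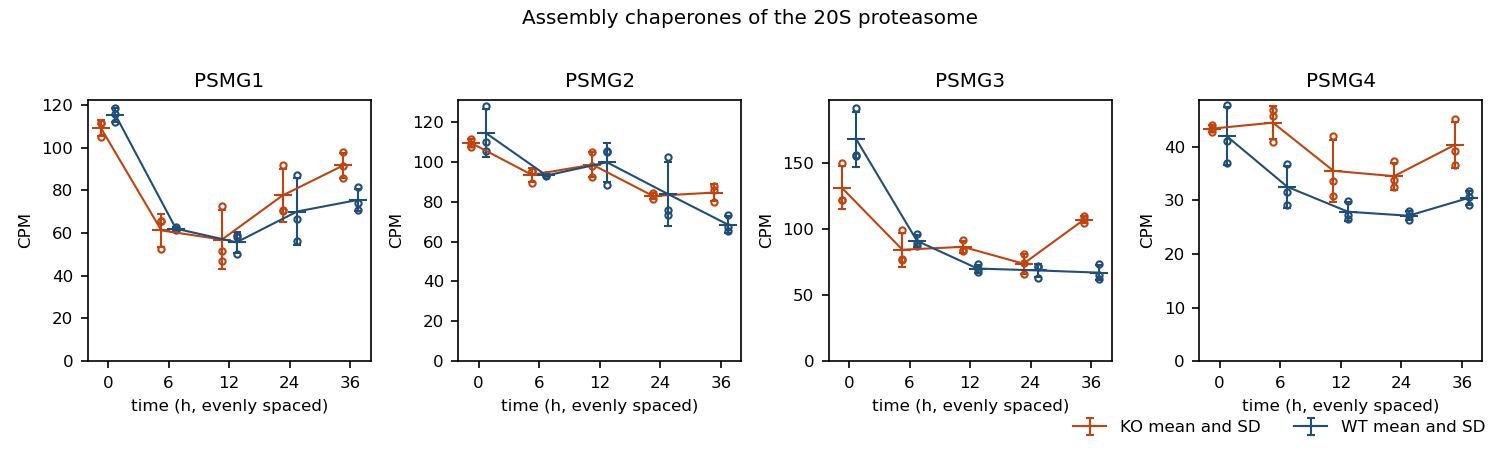
TMM-scaled CPM of the alpha ring assembly chaperones PSMG1 to PSMG4 by time of activation, with KO left of WT. Circles are libraries, and bars with lines are the mean and SD of 3 libraries. PSMG3 in WT lies between 62.1 and 73.5 CPM at 36 h, below the 105 to 109.5 CPM of KO and the 155 to 191 CPM of WT at 0 h.

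POMP, the chaperone that completes core maturation, went the other way. It rose at all 4 times in KO, with log2 fold changes of 0.76, 1.01, 0.53 and 0.74, and at 6 and 12 h in WT, with 0.44 and 0.63. In WT it stood at 0.30 (adjusted p = 0.119) at 24 h and at 0.27 (adjusted p = 0.142) at 36 h.

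Among the remaining core genes, PSMA8 and PSMA6 had the most extreme changes at 36 h in both genotypes. PSMA8, an alpha subunit known from the testis, held 42.1, 40.5 and 44.9 CPM at 36 h and 16.4, 21.3 and 16.2 at 0 h in KO. WT libraries had 37.3, 32.8 and 32.7 CPM at 36 h and 22.1, 23.9 and 18.0 at 0 h. Its libraries of 36 h lay above those of 0 h in both genotypes, with log2 fold changes of 1.27 (SE 0.18, adjusted p = 4.39e-07) in KO and 0.70 (SE 0.18, adjusted p = 0.0015) in WT. PSMA6, an alpha ring subunit, held 529, 454 and 525 CPM at 36 h and 687, 668 and 743 at 0 h in KO. Its WT values were 416, 343 and 366 CPM at 36 h and 856, 816 and 797 at 0 h. It was lower at 36 h without overlap in both genotypes, with -0.48 (SE 0.10, adjusted p = 0.000285) in KO and -1.13 (SE 0.10, adjusted p = 5.53e-11) in WT. Of the 15 constitutive core genes, PSMA8 included, 7 rose at 12 h in KO (14.1% of tested symbols did) and 4 in WT (14.8%). At 36 h, 6 core genes rose and 2 fell in KO (18.6% and 18.0% of tested symbols). In WT 1 rose, which was PSMA8, and 7 fell (20.2% and 19.0%).

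In the regulatory particle, PSMC4, an ATPase, rose at all 4 times in both genotypes. Its mean level at 12 h was 479 ± 33.3 CPM in KO, against 257 ± 15.3 at 0 h. In WT it was 382 ± 16.8 CPM at 12 h, against 241 ± 1.43 at 0 h. The log2 fold changes at 12 h were 0.89 (SE 0.09, adjusted p = 1.81e-09) in KO and 0.66 (SE 0.09, adjusted p = 7.33e-07) in WT, and the WT call at 36 h was lost without WT 36 h replicate 1 (adjusted p = 0.0858) and without the filter on low counts (adjusted p = 0.0756). PSMC3, another ATPase, fell at 24 and 36 h in both, by 0.40 in KO (adjusted p = 0.00273) and by 0.91 in WT (adjusted p = 1.76e-08) at 36 h on the log2 scale. PSMD5, a chaperone of base assembly, rose at all 4 times in KO. It held 142, 136 and 154 CPM at 36 h and 76.6, 86.1 and 88.8 at 0 h in KO. In WT, where it was not called, it held 123, 92.7 and 118 CPM at 36 h and 96.3, 102 and 94.4 at 0 h. PSMC4 and PSMD5 were singled out after their values were seen. All PSMC and PSMD genes, PSMD5 included, were counted as the 20 genes of the regulatory particle. Of these, 8 rose at 12 h in KO (14.1% of tested symbols did). In WT 6 rose and 3 fell (14.8% and 15.6%), the falls being near the background. At 36 h, 5 rose and 1 fell in KO (18.6% and 18.0%), while 1 rose and 8 fell in WT (20.2% and 19.0%).

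The other caps and the inhibitor changed by less than a log2 unit. PSME3, which forms the nuclear PA28 gamma cap, was not called in KO and held 255 ± 15.3 CPM at 36 h and 273 ± 10.6 at 0 h (SD, n = 3 each). In WT it held 259 ± 33.7 CPM at 36 h and 313 ± 19.7 at 0 h, and it fell at 12, 24 and 36 h, with log2 fold changes of -0.30, -0.28 and -0.27 (adjusted p = 0.016, 0.0222 and 0.0243). The call at 12 h was lost without WT 0 h replicate 3 (adjusted p = 0.088). The call at 24 h was lost without WT 0 h replicate 3, WT 24 h replicate 11 or 12 (adjusted p from 0.0526 to 0.186), without the filter on low counts (adjusted p = 0.172) and in a 2-group fit (adjusted p = 0.0885), and that at 36 h without WT 0 h replicate 1 or 3, WT 36 h replicate 2 (adjusted p from 0.0739 to 0.319) and without the filter (adjusted p = 0.16). PSME4 rose at 6 h in both genotypes, by 0.53 in KO (adjusted p = 0.000799) and by 0.45 in WT (adjusted p = 0.00576), the WT call being lost without WT 6 h replicate 6 (adjusted p = 0.0898). At 12 h it rose by 0.62 in KO and 0.70 in WT (adjusted p = 0.000119 and 2.47e-05). PSMF1, the proteasome inhibitor PI31, was looked at after its values were seen. It stood at -0.28 (SE 0.08, adjusted p = 0.0081) in KO at 36 h, a call lost without KO 0 h replicate 1 or 3 (adjusted p from 0.0592 to 0.149), and at -0.32 (SE 0.08, adjusted p = 0.00237) in WT. Both calls were lost without the filter on low counts (adjusted p = 0.223 in KO and 0.0701 in WT).

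**Figure D4:**
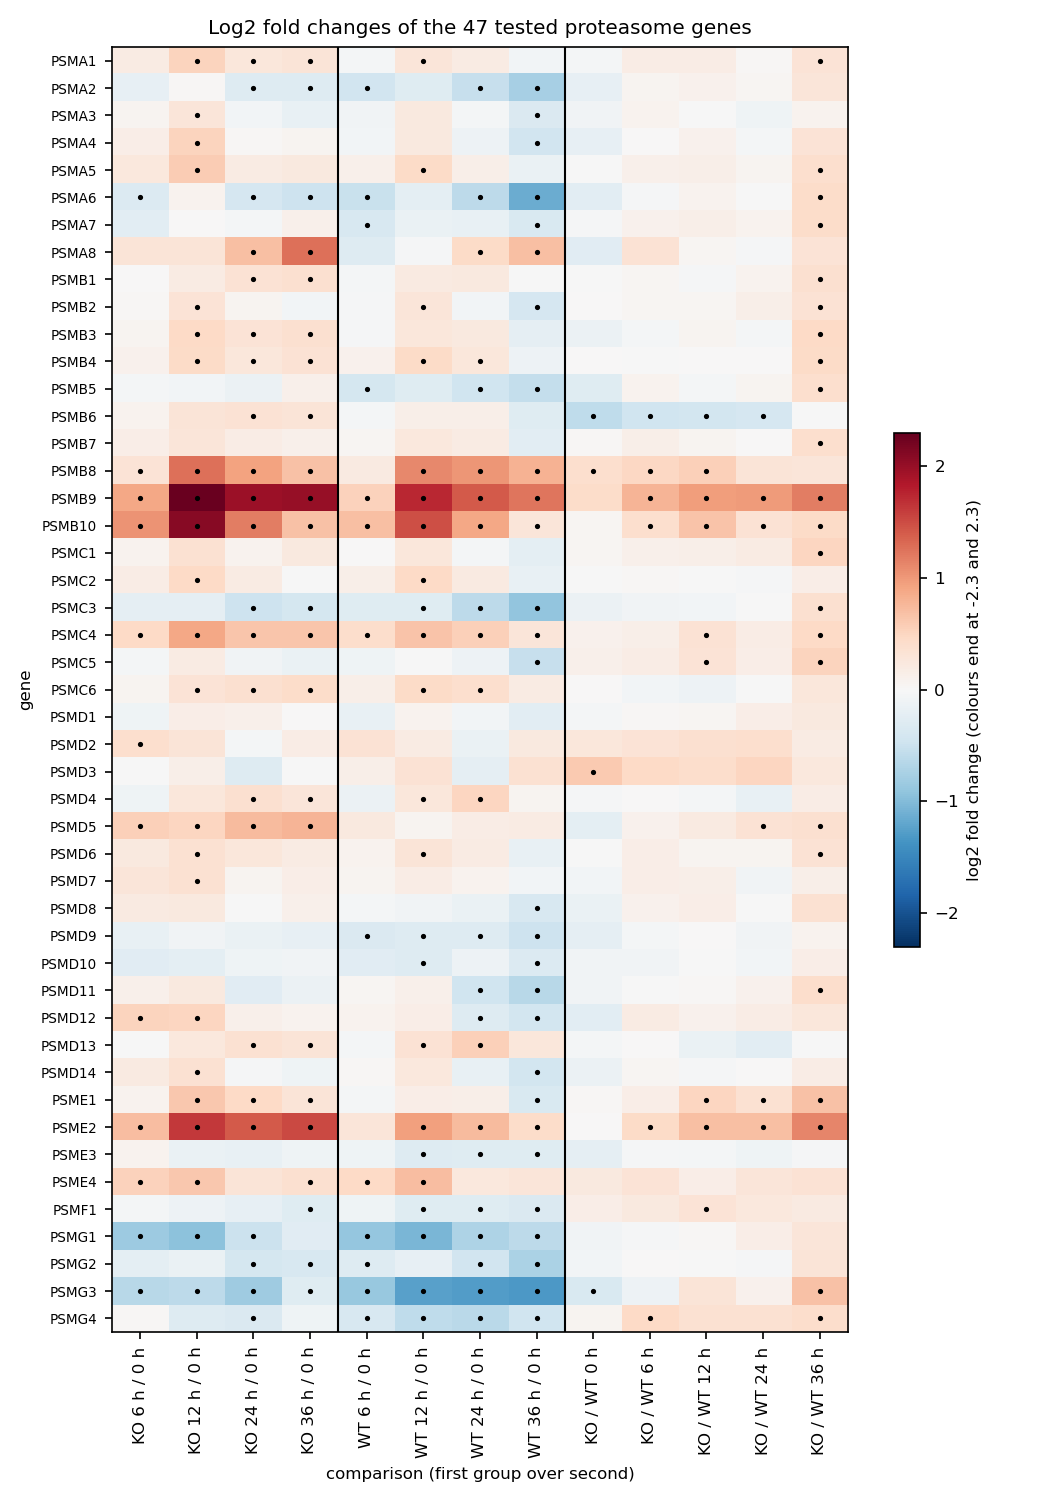
Log2 fold changes of the 47 tested members, one row each, for activation in KO (left), activation in WT (middle) and KO over WT (right). Black dots mark calls at an adjusted p under 0.05. PSMB8, PSMB9, PSMB10 and PSME2 are red across activation, PSMG1 and PSMG3 are blue, and the column of KO over WT at 36 h holds 23 dots, all of them higher in KO.

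KO cells carried more immunoproteasome transcript than WT cells once activated. For PSMB8 and PSMB9, the KO libraries lay above the WT libraries already at 0 h. At 0 h, 2 members were higher in KO and 2 lower, against 2.96% and 3.11% of tested symbols. The count of both together was 4, and it was 1 without WT 0 h replicate 1 or 2, or KO 0 h replicate 1 or 3. At 6 h, 5 were higher and 1 lower, against 5.21% and 4.76%. At 12 h, 8 were higher and 1 lower, against 6.07% and 5.52%, with 5 called without WT 12 h replicate 8. At 24 h, 5 were higher and 1 lower, against 4.97% and 4.76%, with 3 called without WT 24 h replicate 10 or 11 or KO 24 h replicate 11 and 2 without KO 24 h replicate 12. Of the 5 inducible genes 1, 4, 5, 4 and 4 were higher in KO at 0, 6, 12, 24 and 36 h and none was lower, also at an unadjusted p under 0.05. Their median log2 difference was 0.05, 0.44, 0.65, 0.35 and 0.68. The median of the other 42 was -0.05, 0.05, 0.06, 0.03 and 0.32, and the value at 12 h was -0.01 with DESeq2's size factors. Called higher in KO among these 42 were 1, 1, 3, 1 and 19 at 0, 6, 12, 24 and 36 h. Called lower were 2, 1, 1, 1 and 0. Before 36 h these counts lie near or under the shares of tested symbols. The medians over all tested symbols lay between -0.01 and -0.002 at the 5 times.

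PSMB9 differed most between genotypes. KO exceeded WT by 0.78 (SE 0.13, adjusted p = 5.88e-05) at 6 h, 0.96 (SE 0.13, adjusted p = 2.24e-06) at 12 h, 0.97 (SE 0.13, adjusted p = 2.01e-06) at 24 h and 1.18 (SE 0.13, adjusted p = 4.89e-08) at 36 h on the log2 scale, from the library values above. At 0 h the difference was 0.41 (SE 0.13, adjusted p = 0.0522). PSME2 exceeded WT by 0.69 (SE 0.13, adjusted p = 0.000249) at 12 h, 0.69 (SE 0.13, adjusted p = 0.000265) at 24 h and 1.11 (SE 0.13, adjusted p = 9.9e-08) at 36 h, after 0.01 (SE 0.13, adjusted p = 0.976) at 0 h. At 6 h its difference was 0.44 (SE 0.13, adjusted p = 0.0192), a call lost without KO 6 h replicate 5, WT 6 h replicate 6 (adjusted p from 0.0845 to 0.135). PSME1 was higher in KO at 12 h by 0.49 (SE 0.11, adjusted p = 0.00252) and at 36 h by 0.68 (SE 0.11, adjusted p = 3.44e-05). At 24 h, where WT replicate 12 at 728 CPM lay far above the other two WT libraries, its difference was 0.35 (SE 0.11, adjusted p = 0.0326), a call lost without KO 24 h replicate 11 or 12, WT 24 h replicate 10 or 11 (adjusted p from 0.0872 to 0.218) and in a fit of the 6 libraries of 24 h (adjusted p = 0.255).

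PSMB10 was higher in KO at 12 h by 0.65 (SE 0.10, adjusted p = 2.47e-05) and at 36 h by 0.45 (SE 0.10, adjusted p = 0.00224). At 6 h the difference was 0.39 (SE 0.10, adjusted p = 0.00894), a call lost without KO 6 h replicate 5, WT 6 h replicate 6 (adjusted p from 0.067 to 0.0983). At 24 h it was 0.34 (SE 0.10, adjusted p = 0.0268), a call lost without KO 24 h replicate 11 or 12, WT 24 h replicate 10 or 11 (adjusted p from 0.056 to 0.131), without the filter on low counts (adjusted p = 0.074) and in a fit of the 6 libraries compared (adjusted p = 0.1). PSMB8 was higher in KO at 6 h by 0.49 (SE 0.10, adjusted p = 0.00118) and at 12 h by 0.54 (SE 0.10, adjusted p = 0.000278). It stood at 0.30 (SE 0.10, adjusted p = 0.0537) at 24 h and 0.28 (SE 0.10, adjusted p = 0.064) at 36 h. At 0 h its difference of 0.39 (SE 0.10, adjusted p = 0.0149) was lost without KO 0 h replicate 1 or 3, WT 0 h replicate 1 or 2 (adjusted p from 0.0638 to 0.112).

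PSMB6 was the one member lower in KO at more than 1 time. It held 209, 173 and 229 CPM in KO at 0 h, against 322, 266 and 329.9 in WT. At 12 h it held 236, 233 and 285 CPM in KO, against 324, 339 and 349.8 in WT. At 36 h, the only time at which both genotypes carry the same title letter, the genotypes overlapped. There the KO libraries, at 259, 247 and 247 CPM, lay within the WT range of 286, 228 and 246. At the earlier times letter and genotype cannot be told apart. The log2 difference was -0.59 (SE 0.12, adjusted p = 0.00194) at 0 h and -0.01 (SE 0.12, adjusted p = 0.968) at 36 h. It was -0.45 (SE 0.12, adjusted p = 0.0112) at 6 h, lost without KO 6 h replicate 4 or 6, WT 6 h replicate 5 (adjusted p from 0.0677 to 0.0843). At 12 h it was -0.43 (SE 0.12, adjusted p = 0.0167), lost without KO 12 h replicate 7 or 8, WT 12 h replicate 8 or 9 (adjusted p from 0.0591 to 0.102). At 24 h it was -0.38 (SE 0.12, adjusted p = 0.0372), lost without KO 24 h replicate 10 or 11 or 12, WT 24 h replicate 12 (adjusted p from 0.0581 to 0.336), without the filter (adjusted p = 0.0542) and in a fit of the 6 libraries compared (adjusted p = 0.133). PSMB5 and PSMB7 were called at 36 h alone, by 0.39 (SE 0.11, adjusted p = 0.0133) and 0.39 (SE 0.11, adjusted p = 0.0169), and were lost without KO 36 h replicate 4 or 6, WT 36 h replicate 2 or 3 (adjusted p from 0.0549 to 0.0841) for PSMB5 and without KO 36 h replicate 4 or 6, WT 36 h replicate 2 (adjusted p from 0.054 to 0.152) for PSMB7. PSME3 was not called at any time, with differences between -0.20 (0 h) and -0.02 (6 h).

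Outside the inducible members and PSMB6, the members called between genotypes before 36 h were PSMD3 and PSMG3 at 0 h, PSMG4 at 6 h, PSMC4, PSMC5 and PSMF1 at 12 h and PSMD5 at 24 h. With PSMB6 these are 3, 2, 4 and 2 of 42 members at 0, 6, 12 and 24 h. Counted by direction, they lie near or under the shares of tested symbols called. PSMC4, PSMC5, PSMD5 and PSMF1 were singled out after their values were seen. PSMD3, a lid subunit, held 63.7, 60.8 and 85.6 CPM in KO at 0 h, against 45.4, 40.5 and 52.5 in WT. Its libraries did not overlap, but its difference of 0.60 (SE 0.17, adjusted p = 0.0244) was lost without KO 0 h replicate 1 or 3, WT 0 h replicate 1 or 2 (adjusted p from 0.0535 to 0.278). PSMG3 was lower in KO at 0 h, at -0.36 (SE 0.11, adjusted p = 0.0471), a call lost without KO 0 h replicate 1 or 3, WT 0 h replicate 1 or 2 (adjusted p from 0.0587 to 0.204) and without the filter on low counts (adjusted p = 0.1395), and higher at 36 h, at 0.68 (SE 0.11, adjusted p = 4.75e-05). PSMG4 was higher in KO at 6 h by 0.45 (SE 0.12, adjusted p = 0.0113), a call lost without KO 6 h replicate 4, WT 6 h replicate 4 or 6 (adjusted p from 0.0546 to 0.0917). The ATPase PSMC4 was higher in KO at 12 h by 0.33 (SE 0.09, adjusted p = 0.0173), a call lost without KO 12 h replicate 9, WT 12 h replicate 8 or 9 (adjusted p from 0.0509 to 0.0827) and with DESeq2's size factors (adjusted p = 0.0585). PSMC5, another ATPase, stood at 0.31 (SE 0.11, adjusted p = 0.0498) at 12 h, and the call was lost without KO 12 h replicate 8 or 9, WT 12 h replicate 7 or 8 or 9 (adjusted p from 0.0717 to 0.185), with DESeq2 (adjusted p = 0.111), with its size factors (adjusted p = 0.122) and in a 2-group fit (adjusted p = 0.054). PSMF1 was higher in KO at 12 h by 0.32 (SE 0.08, adjusted p = 0.0115), lost without WT 12 h replicate 8 (adjusted p = 0.0664) and without the filter on low counts (adjusted p = 0.054). PSMD5, an assembly chaperone of the base, was higher in KO at 24 h by 0.34 (SE 0.10, adjusted p = 0.0235), a call lost without KO 24 h replicate 12, WT 24 h replicate 10 or 11 (adjusted p from 0.0671 to 0.148), without the filter (adjusted p = 0.0965) and in a 2-group fit (adjusted p = 0.116).

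At 36 h the difference reached well beyond the inducible genes. There 23 of 47 members were higher in KO and 0 lower, against 6.95% and 6.52% of tested symbols. With an unadjusted p under 0.05, 32 were higher and 0 lower, and DESeq2 called 25 higher and 0 lower. The shares above are of adjusted edgeR calls and cannot be set against these last counts. The 23 comprise 4 inducible genes, 10 of the 15 constitutive core genes, 7 of the 20 regulatory particle genes, and PSMG3 and PSMG4. All 4 structural beta genes, PSMB1 to PSMB4, were among them, at log2 differences from 0.34 (PSMB2) to 0.45 (PSMB3). PSMC5, an ATPase singled out after its values were seen, held 391, 331 and 381 CPM in KO, against 295, 222 and 259.6 in WT, a difference of 0.50 (SE 0.11, adjusted p = 0.00107). Summed over all members, proteasome CPM at 36 h was 15429 ± 1013 in KO and 11988 ± 985 in WT (SD, n = 3 each), whereas at 0 h it was 13759 ± 696 in KO and 14296 ± 411 in WT. The count rests partly on single libraries: it was 11 without WT 36 h replicate 2, which held 8.54 M counts, 11 without KO 36 h replicate 6 and 15 without KO 36 h replicate 4. PSMB9, PSME2, PSME1, PSMG3, PSMC4, PSMC5, PSMB4, PSMB10, PSMA6 and PSMA7 remained called under every alternative run at 36 h.

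**Figure D5:**
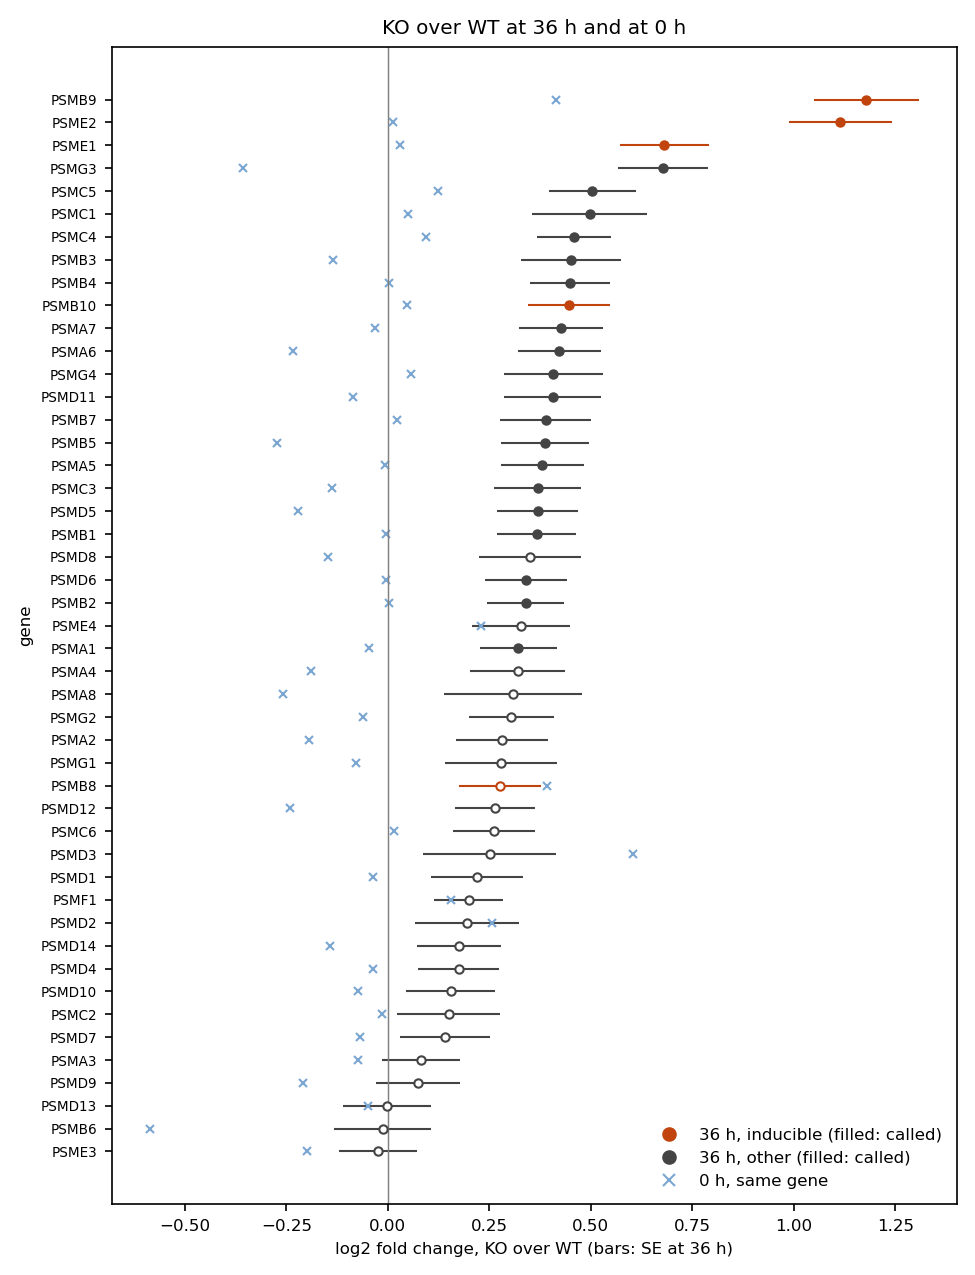
Log2 fold change of KO over WT at 36 h (circles, with SE) for the 47 tested members, ordered by size, and at 0 h (crosses). Filled circles are called at an adjusted p under 0.05, and inducible genes are in orange. Most members lie above 0 at 36 h and near 0 at 0 h, with PSMB9 at 1.18 and PSME2 at 1.11 at the top.

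Averaged over the 5 times, 19 members were higher in KO and 1 lower, against 15.3% and 15.3% of tested symbols. With DESeq2's size factors the split was 14 higher and 3 lower (PSMB6, PSMD13 and PSME3), and without 12 h it was 14 higher and 1 lower. All 5 inducible genes were among the 19. The average log2 difference was 0.86 (SE 0.06, adjusted p = 1.1e-13) for PSMB9, 0.59 (SE 0.06, adjusted p = 4.95e-10) for PSME2 and 0.44 (SE 0.07, adjusted p = 1.79e-05) for PSMD3. For PSMB6 it was -0.37 (SE 0.05, adjusted p = 1.57e-06). PSMB8, PSMB10 and PSME1 averaged 0.40, 0.37 and 0.34 (adjusted p = 1.62e-08, 6.33e-08 and 1.47e-06).

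A time course differed between genotypes for 8 of 47 members, where 9.84% of tested symbols did, by a joint test of the change from 0 h at the 4 later times. The 8 were PSMG3 (adjusted p = 0.000202), PSME2 (0.000918), PSME1 (0.0201), PSMD5 (0.0215), PSMA6 (0.0244), PSMB9 (0.0387), PSMB5 (0.0396) and PSMB10 (0.047). Inducible genes made up 4 of them, and the other 4, of 42 tested, lie near the share of tested symbols. From 0 to 36 h, PSME2 changed by 1.10 more (SE 0.178, adjusted p = 9.7e-05) and PSMG3 by 1.03 more (SE 0.157, adjusted p = 4.1e-05) in KO than in WT on the log2 scale. PSME2 and PSMG3 were called under every alternative run. PSME1 lost its call under 1 and PSMD5 under 2 of the 34 alternatives, PSMA6 under 7, PSMB9 under 13, PSMB5 under 19 and PSMB10 under 22. Without 12 h there were again 8 called members, but PSMB10 was not among them (adjusted p = 0.178). Leaving out 1 library gave between 3 and 10 called members. It gave 3 without KO 0 h replicate 1, 4 without WT 0 h replicate 1, WT 36 h replicate 2 or KO 36 h replicate 4 or 6, and 5 without WT 0 h replicate 3, WT 6 h replicate 5, WT 12 h replicate 7 or 8, WT 36 h replicate 3 or KO 0 h replicate 2 or 3. PSMB8 was not called (adjusted p = 0.516).

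The regulators and partners of the proteasome moved in both directions. Of 23 tested, 7, 8, 6 and 10 rose and 3, 3, 4 and 1 fell at 6, 12, 24 and 36 h in KO, with median log2 fold changes of 0.19, 0.22, 0.11 and 0.20. Of all tested symbols, 14.0%, 14.1%, 16.1% and 18.6% rose and 13.2%, 13.7%, 16.7% and 18.0% fell at these times in KO. In WT 4, 5, 3 and 4 rose and 3, 4, 6 and 6 fell, with medians of 0.05, 0.07, -0.09 and 0.01. There 11.8%, 14.8%, 17.3% and 20.2% of tested symbols rose and 10.5%, 15.6%, 17.0% and 19.0% fell, so several of these counts lie near or under the background. KO exceeded WT in 0, 4, 3, 2 and 6 of them at 0, 6, 12, 24 and 36 h (2.96%, 5.21%, 6.07%, 4.97% and 6.95% of tested symbols), and UBQLN2, a ubiquitin shuttle, was lower in KO at 36 h, at -0.33 (SE 0.10, adjusted p = 0.0173). NFE2L1, a transcription factor that drives proteasome genes when proteasome activity drops, was not called during activation in either genotype, with log2 fold changes between -0.40 (6 h) and 0.34 (36 h) in KO and between 0.05 (6 h) and 0.21 (24 h) in WT. At 36 h it was higher in KO by 0.52 (SE 0.15, adjusted p = 0.0201). PAAF1, a chaperone of the base, fell at all 4 times in WT, with -0.67, -0.78, -0.56 and -0.68, and at 6, 12 and 24 h in KO, with -0.42, -0.47 and -0.36. AKIRIN2, which carries proteasomes into the nucleus, rose at 6 and 12 h in both genotypes and at 36 h in WT. At 6 and 12 h its log2 fold changes were 0.71 and 0.68 in KO and 0.73 and 0.40 in WT.

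Genes of antigen processing and interferon signalling rose with activation and stood higher in KO. Of 22 tested, 18, 20, 19 and 20 rose and 0, 0, 1 and 1 fell at 6, 12, 24 and 36 h in KO, and 19, 18, 18 and 18 rose and 0, 0, 1 and 1 fell in WT. The shares of tested symbols that rose were 14.0%, 14.1%, 16.1% and 18.6% in KO and 11.8%, 14.8%, 17.3% and 20.2% in WT. IFNGR2, a chain of the interferon gamma receptor, was the gene that fell. KO exceeded WT in 6, 15, 20, 15 and 12 of the 22 at 0, 6, 12, 24 and 36 h, against 2.96%, 5.21%, 6.07%, 4.97% and 6.95% of tested symbols, and none was lower, also at an unadjusted p under 0.05, with median log2 differences of 0.32, 0.52, 0.68, 0.63 and 0.51. TAP1, the neighbour of PSMB9, held 1231, 1378 and 1333 CPM in KO at 12 h, against 681, 545 and 767 in WT. Its log2 difference was 0.73 (SE 0.11, adjusted p = 5.67e-05) at 0 h and 0.98 (SE 0.11, adjusted p = 1.19e-07) at 12 h. IRF1, a factor that binds the ISRE, held 572, 638 and 599 CPM in KO at 6 h, against 328, 317 and 324 in WT, a difference of 0.90 (SE 0.13, adjusted p = 4.61e-06). NLRC5, the transactivator of MHC class I genes, differed by 0.68 (SE 0.13, adjusted p = 0.000303) at 6 h and 0.83 (SE 0.13, adjusted p = 1.78e-05) at 12 h. IFNG, the gene of interferon gamma, was at or near 0 at 0 h in both genotypes and held 50.6, 19.2 and 49.8 CPM at 6 h in KO, against 7.41, 4.90 and 8.10 in WT, a difference of 2.55 (SE 0.44, adjusted p = 0.000134). Its part in the levels of the proteasome genes was not tested.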

How the data were processed

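The deposited files give 1 value per gene symbol and library, the authors' estimated counts: whole numbers except at 195 of 54300 symbols (0.177% of values, none a member), and these were rounded. Per the submitters' processing notes, cutadapt, STAR, DESeq2 and the builds GRCh37 and hg19 are named, without versions or roles. How reads were counted is not given in the sources used here. Symbols were kept by edgeR's filterByExpr with a minimum count of 10, which left 21554, and libraries were TMM-scaled. A quasi-likelihood model of the 10 groups over all 30 libraries (R 4.3.3, edgeR 4.0.16, limma 3.58.1) gave each comparison, with Benjamini-Hochberg adjustment over all tested symbols and calls at 0.05. Ratios used counts plus 0.5 and exact permutation tests. The script was tested on simulated data. Alternatives were DESeq2 1.42.0, its size factors, no filter, 2-group fits, a replicate block, leaving out each library and, chosen after seeing the data, leaving out 12 h. Named members were PSMB5 to PSMB10, PSME1 to PSME3 and, for each comparison, the 3 largest called rises and falls of members with at least 10 CPM in a compared group (for the joint test the 6 smallest p). Members and lists were chosen with earlier results of these data known. Total counts per library, 5.64 to 28.2 M (median 20.5 M), set the precision. Promoter sequences and motif counts come from RefSeq (GRCh38.p14), exon lengths and overlaps from GENCODE 29.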

Additional observations from a re-analysis of the deposited data

Results flagged for a closer look

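The change from 0 h differed between KO and WT for 8 of 47 members by edgeR's joint quasi-likelihood test over the 4 later times, where 9.84% of tested symbols did. Inducible genes made up 4 of the 8, and the other 4 of 42 lie near that share. PSMG3, an assembly chaperone, had an adjusted p of 0.000202: it fell less in KO than in WT, with log2 fold changes at 36 h of -0.29 in KO and -1.32 in WT. PSME2, the PA28 beta subunit, had an adjusted p of 0.000918 and changed by 1.52 in KO and 0.42 in WT at 36 h. PSME1 (adjusted p = 0.0201) stood at 0.30 in KO and -0.35 in WT at 36 h, on opposite sides of 0. PSMD5 (adjusted p = 0.0215) changed by 0.78 in KO and by 0.19 in WT at 36 h. For PSMA6 (adjusted p = 0.0245) the values at 36 h were -0.48 in KO and -1.13 in WT. PSMB9 (adjusted p = 0.0387) stood at 2.00 in KO and 1.24 in WT. The constitutive PSMB5 (adjusted p = 0.0396) was at 0.11 in KO and -0.55 in WT. PSMB10 (adjusted p = 0.0470) was at 0.67 in KO and 0.27 in WT, and its joint call was lost without 12 h (adjusted p = 0.178). The joint calls of PSMB10, PSMB5, PSMB9 and PSMA6 were lost under 22, 19, 13 and 7 of the 34 alternatives.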

How the results depend on the processing

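No called result changed direction under any alternative (the median of the 42 members outside the inducible set at 12 h, near 0, did), and 144 of 244 gene calls were kept under every one run. In WT at 12 h, 23 members were called in the main fit. The count was 15 with no filter on low counts and 35 in a fit of the 2 groups compared. For KO against WT at 24 h it was 6 in the main fit, 2 in a 2-group fit and 10 with DESeq2. Whether replicate numbers pair the libraries is not given. Of 12 same-numbered pairs, 1 correlated over 0.1 in its deviations from the group means (r from -0.015 to 0.126), which does not settle it. With the number as a replicate block the counts for KO against WT were 9 at 0 h, 10 at 6 h, 11 at 12 h and 10 at 24 h. Without it they were 4, 6, 9 and 6, and each member called without the block was also called with it. At 36 h the numbers are not shared, so no block was possible there.

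Leaving out 1 library gave, for KO against WT, between 1 and 5 called members at 0 h, 4 and 5 at 6 h, 5 and 8 at 12 h, 2 and 7 at 24 h, 11 and 26 at 36 h and 18 and 26 for the average. For activation in KO it gave between 9 and 13 at 6 h, 18 and 28 at 12 h, 17 and 22 at 24 h and 15 and 21 at 36 h. In WT it gave between 9 and 13 at 6 h, 15 and 19 at 12 h, 18 and 22 at 24 h and 23 and 29 at 36 h, and for the joint test between 3 and 10. The 3 count ratios kept their direction and calls under each alternative tried for them. DESeq2's size factors moved the median of all genes by at most 0.07 on the log2 scale. The shallowest libraries (5.64, 7.59 and 8.54 M counts) belong to 0 and 36 h. The cause of these shifts was not tested.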
